A study of Mus musculus with 13 samples.

Results

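The clustered protocadherins are cadherin-type adhesion molecules encoded in 3 neighbouring gene arrays, alpha, beta and gamma, on mouse chromosome 18. Genes were taken as members when their symbol begins with Pcdha, Pcdhb or Pcdhg and their mean normalised count was above 0. This left 51 of the 19909 genes with reads, namely 8 alpha, 21 beta and 22 gamma genes, out of 58 family genes in the table. Bulk polyA RNA came from tongue epithelium of mice. All 13 samples carried the LSL-H3K36M allele, which encodes histone H3 with methionine in place of lysine 36 and stays off until Cre recombinase takes out a stop cassette. The 6 H3K36M samples also carried Krt14-Cre, driven by a keratin promoter of basal epithelial cells, and the 7 control samples were Cre-negative, so effects of Cre itself and of the mutant histone cannot be told apart. The sources used here give neither age nor sex of the mice, nor which samples came from which animal, so p-values measure the spread between these samples.

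In the alpha and gamma arrays each variable first exon has its own promoter and is spliced to constant exons shared by the whole array, whereas beta genes are single-exon units. The proteins bind their own kind across cell contacts. In mouse neurons the promoters are chosen in part at random, with CTCF and cohesin bringing a promoter to a distant enhancer and DNA methylation and the repressor SMCHD1 keeping others silent. That gives each neuron its own set, which serves self-recognition of its branches. Outside the nervous system the family is less well described, and in human colorectal carcinoma PCDHGC3 is known as a gene silenced by DNA methylation. Methylated H3K36 is bound by the DNA methyltransferases DNMT3A and DNMT3B.

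No clustered protocadherin passed the authors' threshold. Of 48 members with an adjusted p in the authors' deposited table, none reached an adjusted p below 0.05 (DESeq2 by the authors). The count was 0 higher, against 1.85% of all 17449 genes tested, and 0 lower, against 1.59%, or 3.43% in both directions. At an unadjusted p below 0.05 there were 6, with 5 higher and 1 lower in H3K36M in the authors' deposited table. Over all tested genes 5.04% were higher and 4.79% lower by that rule, 9.82% in all, as were 12.4% of the 9039 tested genes in the same range of means. The 6 members were the beta genes Pcdhb7, Pcdhb11, Pcdhb17 and Pcdhb4, with Pcdha5 on the higher side and Pcdhac2 on the lower. The remaining 3 members with reads had no adjusted p, Pcdha2 because the authors' table marked it as an outlier and Pcdha8 and Pcdhb2 because of their low mean.

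The fitted level was nonetheless higher in H3K36M for 44 of the 48 tested members in the authors' deposited table, where the same held for 56.6% of all tested genes and for 58.6% of those in the members' range of means. The median log2 fold change (log2FC, H3K36M over control) was 0.67 over the members, 0.07 over all tested genes and 0.15 over genes in that range. The members were read in the same libraries, share exons within the alpha and gamma arrays and are close in sequence within the beta array, so their directions are not independent of each other. The bulk libraries cannot tell more RNA per cell from more cells of a type. The table holds fitted group levels and standard errors (SE) with no values of single samples, so whether the groups overlap cannot be read from it.

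**Figure D1:**
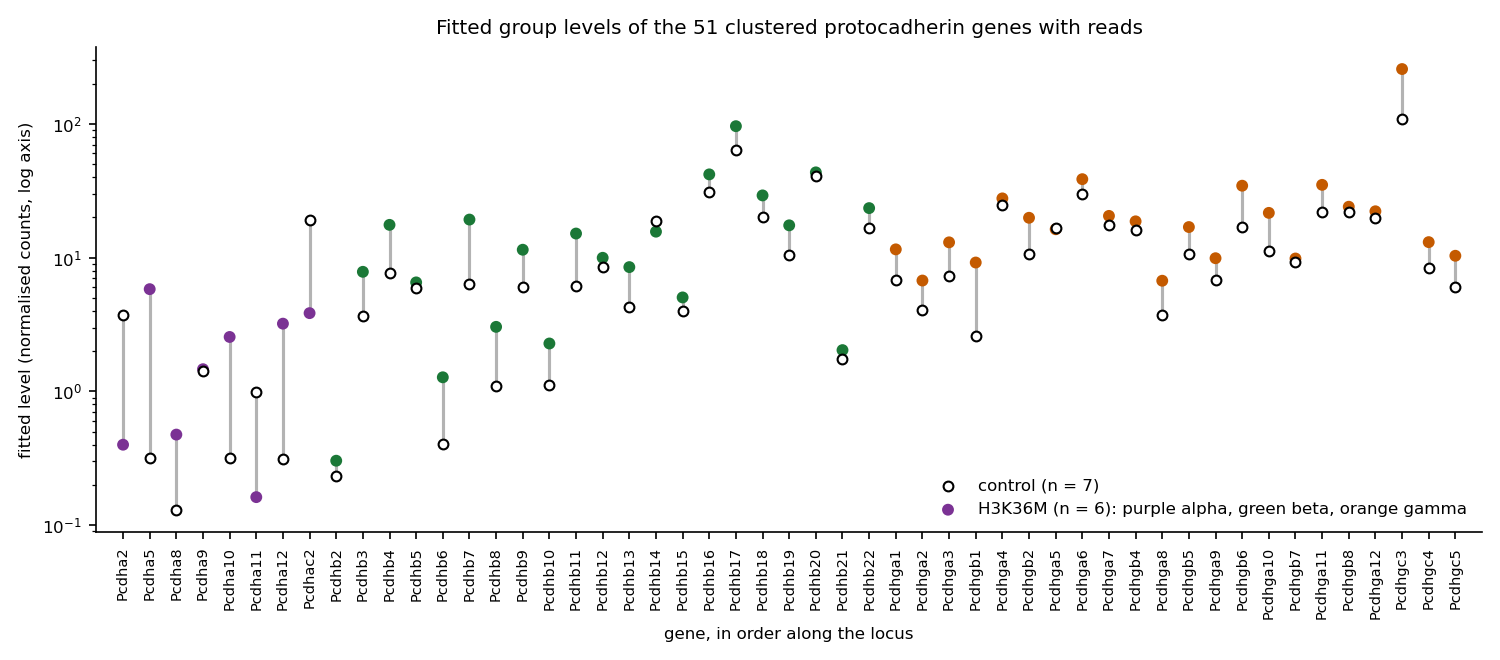
Fitted level in normalised counts (log axis) of each of the 51 genes in control (open circles, 7 samples) and H3K36M (filled circles, 6 samples), joined by a line and ordered along the locus. Levels of different genes are not corrected for length. Most filled circles lie above the open ones in the beta and gamma arrays, and the alpha genes other than Pcdhac2 had means below 5 normalised counts.

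Expression within the family was uneven. How reads in the shared constant exons, or in the near-identical stretches of beta genes, were assigned is not known here, so the levels of single genes within an array are uncertain. Per kilobase of the longest annotated transcript, Pcdhgc3 ranked first of the 49 members that could be matched, with a fitted level of 23.1 in control and 54.7 in H3K36M, on the scale of normalised counts per kilobase. It was followed by Pcdhb17 with 13.7 and 20.6, and by Pcdhb20 with 11.5 and 12.2, on the same scale. Pcdhga6, the most abundant of the gamma-A genes, had 6.35 and 8.15 per kilobase, and Pcdhac2, the most abundant alpha gene in control, had 3.24 and 0.65. Low expression was the rule in the alpha array, where 6 of the 14 genes had no read in any library (Pcdha1, Pcdha3, Pcdha4, Pcdha6, Pcdha7 and Pcdhac1), as did Pcdhb1. A count of 0 over all 13 libraries allows up to 3 reads, counting error only. The member with the lowest mean, Pcdhb2, had 0.265 normalised counts in the authors' deposited table.

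The alpha array spans positions 36930285 to 37188897 of chromosome 18 (GRCm38, RefSeq annotation), and its transcripts have 4 exons. Pcdhac2 belongs to the C-type genes, which in neurons are expressed more uniformly than the others, and it is known in mice for the spacing of serotonergic axons. Its fitted level was 19.1 normalised counts in control and 3.85 in H3K36M in the authors' deposited table. The log2FC was −2.31 (SE 1.01, 95% interval −4.30 to −0.32, unadjusted p = 0.0227, adjusted p = 0.324 by the authors' DESeq2). It was the only tested member with an unadjusted p below 0.05 on the lower side.

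The other alpha genes rested on few reads. Pcdha5 had fitted levels of 0.320 in control and 5.81 in H3K36M in the authors' deposited table, a log2FC of 4.18 whose interval ran from 0.29 to 8.07 (adjusted p = 0.421). Summed over the 13 libraries this gene had 37.1 normalised counts. Pcdha12, with 0.312 and 3.21, had a log2FC of 3.36 (SE 1.97), and Pcdha10, with 0.316 and 2.55, one of 3.01 (SE 2.61) in the authors' deposited table. Pcdha9 had nearly equal fitted levels, 1.42 in control and 1.47 in H3K36M, but its interval still ran from −4.24 to 4.33 on the log2 scale.

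Pcdha11 had a summed count of 7.88, which equals 8 times a value recovered for 1 read in a single library, within a relative tolerance of 1e-09, as 8 reads in 1 library and none in the other 12 would give. That library cannot be matched to a labelled sample. These read values were not settled for all genes: among 1027 genes with a summed count too low for more than 2 reads, 921 were whole multiples of 1 of them, but of the other 106 only 6 were sums of a pair of them within 1e-06. The fitted levels of Pcdha11 were 0.987 in control and 0.162 in H3K36M (log2FC −2.61, SE 3.06) in the authors' deposited table. If all its reads lay in 1 library, 1 group had none, and the fitted level there is a model value, not an observed average. The same may hold for other alpha genes with few reads, and so for the sums of alpha levels. Pcdha2, the gene marked as an outlier, had 3.76 in control and 0.400 in H3K36M there, with a log2FC of −3.23 (SE 3.01) and no p. Over the array, the summed fitted level was 26.3 normalised counts in control and 17.9 in H3K36M. The log2 ratio of these sums, −0.56, has the opposite sign to the median log2FC of the 6 tested genes, 1.53, since Pcdhac2 alone made up 72.5% of the control sum. Without the C-type gene the sums were 7.24 and 14.1.

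The beta array lies at 37264998 to 37521419 of the same chromosome. Of its 20 tested genes, 19 had a higher fitted level in H3K36M, with a median log2FC of 0.66 and a summed level of 259 normalised counts in control and 377 in H3K36M. Pcdhb7 (37341702 to 37345207) came closest to the threshold. It had fitted levels of 6.37 in control and 19.2 in H3K36M in the authors' deposited table, and a log2FC of 1.59 (SE 0.53, 95% interval 0.56 to 2.63, adjusted p = 0.0672). Pcdhb11 stood at 6.13 and 15.1 there, with a log2FC of 1.30 (SE 0.49, adjusted p = 0.153). Pcdhb4 stood at 7.71 and 17.6, with 1.19 (SE 0.55, adjusted p = 0.395) in the authors' deposited table. All 3 had means between 10.3 and 12.3 normalised counts, so their values rest on modest read numbers.

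Pcdhb17, the most abundant beta gene, was measured with the smallest SE of all members. Its fitted level was 63.9 normalised counts in control and 96.0 in H3K36M in the authors' deposited table, a log2FC of 0.59 (SE 0.24, 95% interval 0.12 to 1.05, adjusted p = 0.226). Pcdhb20, with levels of 40.8 and 43.4, had a log2FC of 0.09 (95% interval −0.61 to 0.79) in that deposited table. Pcdhb16 stood at 30.7 and 41.9, with 0.45 (SE 0.30), and Pcdhb18 at 20.2 and 29.2, with 0.53 (SE 0.36) in the authors' deposited table. The 1 tested beta gene with a lower fitted level was Pcdhb14, at 18.9 in control and 15.6 in H3K36M there (log2FC −0.28, SE 0.37).

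Along the beta array, larger fold changes lay toward the alpha side. The first 10 tested genes, Pcdhb3 to Pcdhb12, had a median log2FC of 1.15, with summed levels of 46.9 normalised counts in control and 94.3 in H3K36M. The last 10, Pcdhb13 to Pcdhb22, had a median of 0.47, with sums of 212 and 282. The first group also had lower means (median 7.36 against 18.6 normalised counts) and larger SEs (median 0.59 against 0.36 on the log2 scale). By mean instead of position, the 10 tested beta genes under 10 normalised counts had a median log2FC of 0.96 and the other 10 one of 0.56. The difference between the groups was not tested, and it was looked for after the values were seen.

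**Figure D2:**
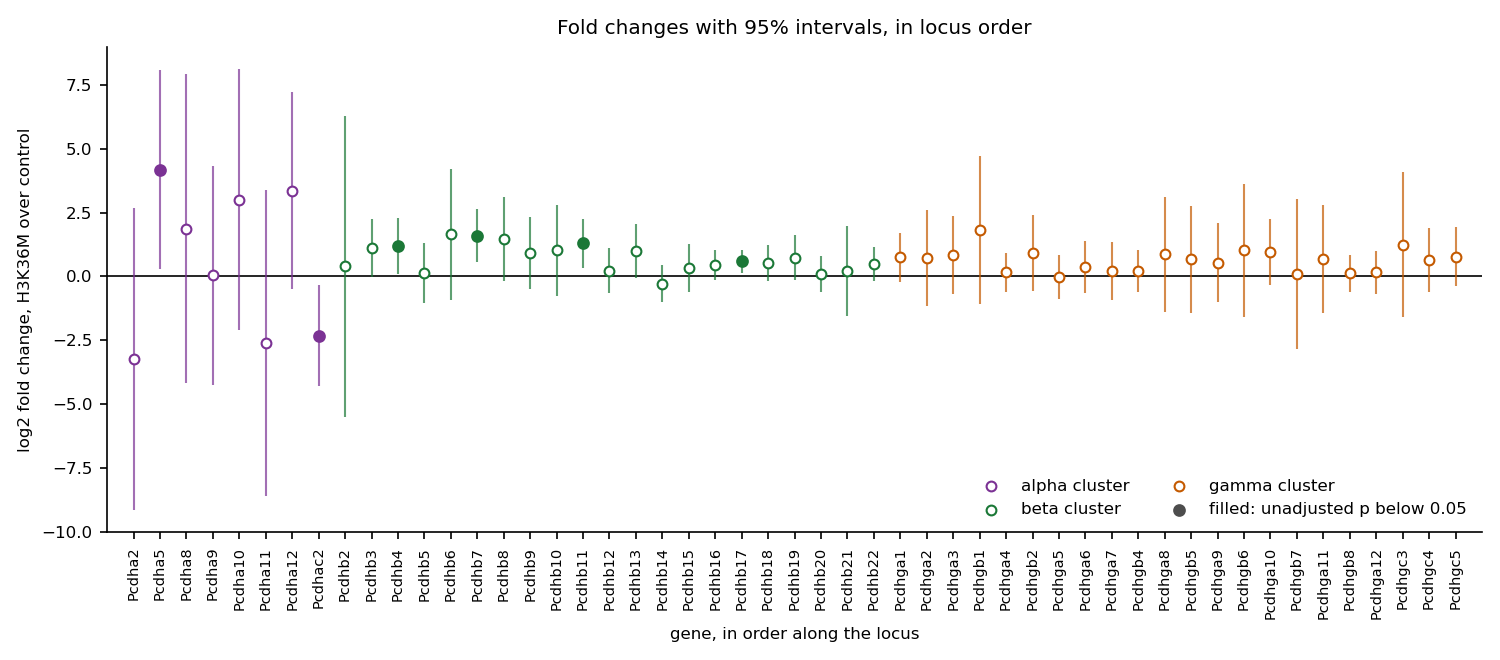
Log2FC of each gene, H3K36M over control, with its 95% interval from the authors' standard error, in order along the locus. Filled points have an unadjusted p below 0.05, and none has an adjusted p below 0.05. The alpha genes have the widest intervals, and in the beta array the points from Pcdhb3 to Pcdhb11 mostly lie higher than those from Pcdhb14 to Pcdhb22.

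The gamma array (37661775 to 37841873) holds the gamma-A, gamma-B and C-type genes. All 22 were tested, 21 had a higher fitted level in H3K36M, and the authors' deposited table gave 0 of them an unadjusted p below 0.05. The median log2FC was 0.67 (range −0.02 to 1.82). The summed level was 381 normalised counts in control and 643 in H3K36M, a log2 ratio of 0.75, or 0.50 without Pcdhgc3, whose share of the sum was 28.4% in control and 39.9% in H3K36M.

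Pcdhgc3 (37806410 to 37841873) had the highest mean of the family and 1 of the widest intervals among members with a mean of at least 5. Its fitted level was 108 normalised counts in control and 257 in H3K36M in the authors' deposited table, a log2FC of 1.25 with an SE of 1.45 (95% interval −1.60 to 4.09, adjusted p = 0.990). The other C-type genes of the array were measured more tightly. Pcdhgc4, needed for survival of neurons in mice, stood at 8.33 and 13.1, with a log2FC of 0.65 (SE 0.63), and Pcdhgc5 at 6.01 and 10.3, with 0.78 (SE 0.60), in the authors' deposited table.

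The 12 gamma-A genes had a median log2FC of 0.61 and the 7 gamma-B genes one of 0.66. Both groups encode variants used in homophilic recognition. Pcdhga6 stood at 30.0 in control and 38.6 in H3K36M, with a log2FC of 0.36 (SE 0.52), and Pcdhga4 at 24.7 and 27.7, with 0.17 (SE 0.39), in the authors' deposited table. Pcdhga11 had 21.8 and 35.0 (0.68, SE 1.08) and Pcdhgb6 had 16.9 and 34.5 (1.03, SE 1.33) there. The smallest unadjusted p values among gamma genes belonged to Pcdhga1 (0.124, log2FC 0.76, SE 0.49), Pcdhga10 (0.152, log2FC 0.95, SE 0.66), Pcdhgc5 (0.191) and Pcdhgb1 (0.220, log2FC 1.82, SE 1.48) in the authors' deposited table. Pcdhga5 was the 1 gamma gene with a lower fitted level, at 16.5 and 16.3.

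Gamma genes differed in how much they varied between libraries. The SE of each fold change, with the fitted levels, implies a coefficient of variation (CV, the spread between libraries beyond read counting over the level), computed here on the assumption of equal depths. It is a model value, since DESeq2 moderates the dispersion of each gene toward that of genes with a like mean. Among members whose mean was 5 normalised counts or more, the 15 beta genes had implied CVs from 0.272 (Pcdhb17) to 0.837 (Pcdhb9). The 1 alpha gene in this range, Pcdhac2, had 1.20. In the gamma array 14 genes had values from 0.401 to 0.920, and 8 had values from 1.11 to 1.84. These 8 were Pcdhga2, Pcdhgb1, Pcdhga8, Pcdhgb5, Pcdhgb6, Pcdhgb7, Pcdhga11 and Pcdhgc3, and the limit of 1 between the classes was chosen after the values were seen. The median implied CV was 0.489 in the beta array and 0.846 in the gamma array, against 0.668 (quartiles 0.432 and 1.03) for 6516 tested genes with means from 5 to 177. The upper quartile of those genes lay above 1, so values above 1 were not particular to gamma genes. Pcdhgb7 shows the consequence for precision. Its fitted levels were almost equal, 9.20 in control and 9.85 in H3K36M, yet the interval of its log2FC ran from −2.84 to 3.04 in the authors' deposited table.

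**Figure D3:**
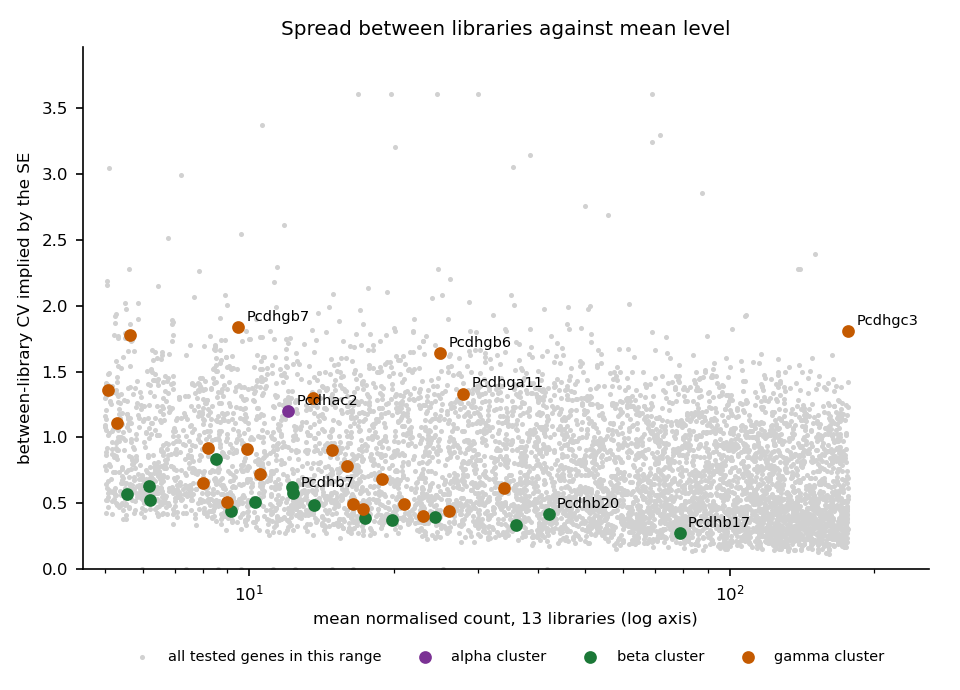
Between-library CV implied by the standard error of each fold change against mean normalised count (log axis), for members with a mean of at least 5 (coloured by array) and for all tested genes in that range (grey). The beta genes lie between 0.272 and 0.837, and Pcdhac2 and 8 gamma genes lie above 1, Pcdhgc3 at the far right among them.

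How large a difference the data leave possible varied by gene. A doubling in H3K36M, a log2FC of 1, lay outside the 95% interval of 6 of the 48 tested members (Pcdhac2, Pcdhb14, Pcdhb20, Pcdhga4, Pcdhga5 and Pcdhgb8), and the intervals of the other 42 reached it. The missing calls therefore do not show equal expression.

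Genes related to the family by structure were set beside it. Of 11 tested non-clustered protocadherins, 0 were higher and 1 was lower at the threshold in the authors' deposited table, against 1.85% and 1.59% of all tested genes. Their median log2FC was 0.70, and 9 of the 11 had a higher fitted level in H3K36M, against 56.6% of all tested genes. At an unadjusted p below 0.05 there were 2. The lower gene was Pcdh18, with levels of 102 and 66.0 and a log2FC of −0.62 (SE 0.18, adjusted p = 0.0185). The other with an unadjusted p below 0.05 was Pcdh20, higher in H3K36M and named after its value was seen. It had levels of 14.4 and 53.3 and a log2FC of 1.89 (SE 0.67, adjusted p = 0.112 by the authors' DESeq2). None of 9 FAT, Dachsous and CELSR cadherins passed (DESeq2 by the authors, 0 with an unadjusted p below 0.05, median 0.50), among them Celsr2 at 0.21 (SE 0.92) and Fat1 at −0.12 (SE 0.44). Of 14 classical cadherins and catenins, 2 catenins of neural type were lower, Ctnna2 with a log2FC of −2.95 (SE 0.71, adjusted p = 0.00185) and Ctnnd2 with −1.96 (SE 0.44, adjusted p = 0.000551) in that deposited table. Their levels went from 17.7 to 2.29 and from 164 to 42.2 normalised counts.

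The regulators of protocadherin choice fell into a list of insulation genes and a list of silencing genes. The list of CTCF and cohesin genes had 12 tested members, of which 0 passed the threshold and 0 had an unadjusted p below 0.05 by the authors' DESeq2, with a median log2FC of −0.00. In the authors' deposited table Ctcf, the insulator protein, stood at 0.06 (SE 0.18), the cohesin subunits Rad21 at 0.01 (SE 0.22), Smc3 at 0.17 (SE 0.36) and Stag2 at 0.08 (SE 0.49), and Wapl, which releases cohesin, at −0.09 (SE 0.37). Of 19 genes of DNA methylation and silencing 1 was higher and 0 were lower at the threshold (DESeq2 by the authors). Their median log2FC was 0.30 and 15 of the 19 had a higher fitted level in H3K36M, against 56.6% of all tested genes. The 1 gene past the threshold was Dnmt3l, a cofactor of the DNA methyltransferases known from germ cells. It stood at 5.14 normalised counts in control and 23.7 in H3K36M (log2FC 2.20, SE 0.48, adjusted p = 0.000434) in the authors' deposited table. The methyltransferases Dnmt3a at 0.35 (SE 0.63) and Dnmt3b at 0.58 (SE 0.54), the repressor Smchd1 at 0.16 (SE 0.35) and the H3K9 methyltransferase Setdb1 at 0.08 (SE 0.16) did not pass.

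The genes around the arrays, which share their chromosome region but not their family, had a median log2FC of −0.09 over 28 tested genes. Their means ran from 4.07 to 2232 normalised counts, whereas the highest member mean was 177. The 2 groups were not compared at like means, so their medians are no like-for-like contrast of family and region. Of the 28 genes, 0 passed the threshold (DESeq2 by the authors), 2 had an unadjusted p below 0.05, and 10 had a higher fitted level in H3K36M. Over all tested genes these shares were 3.43%, 9.82% and 56.6%. The most abundant were Ik at −0.15 (SE 0.32) and Ankhd1 at −0.00 (SE 0.34) in the authors' deposited table. Taf7, between the beta and gamma arrays and named after its value was seen, stood at −0.35 (SE 0.38). Slc25a2 of the same list, also named afterwards, had the opposite sign, at 0.34 (SE 0.79, levels 3.63 in control and 4.59 in H3K36M). Among 21 intracellular partners and proteases of protocadherins 0 passed and 2 had an unadjusted p below 0.05 by the authors' DESeq2, with a median of 0.20. The WAVE complex genes Nckap1 (0.05, SE 0.36) and Abi1 (0.03, SE 0.32), which link these receptors to actin, were the most abundant in the authors' deposited table.

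**Figure D4:**
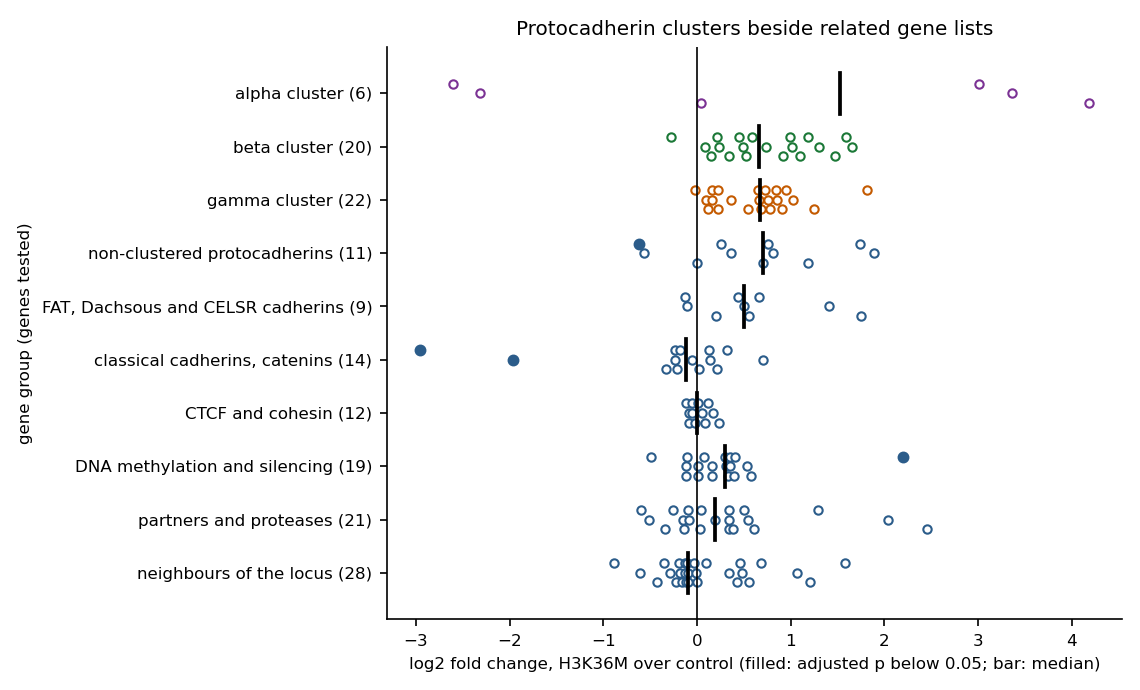
Log2FCs, H3K36M over control, of the tested genes of each protocadherin array and of 7 related lists (number tested in brackets), with the median as a bar and genes with an adjusted p below 0.05 filled. The medians of the beta and gamma arrays are 0.66 and 0.67, that of the non-clustered protocadherins is 0.70 and that of the genes around the locus −0.09. Means differ between the groups, with a highest mean of 177 normalised counts in the arrays and 2232 around the locus.

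The libraries had the markers of the labelled tissue, and other cell types were present. Krt4 and Krt13, keratins of oral epithelium, had means of 698684 and 1059650 normalised counts in the authors' deposited table. Neither passed the threshold, but of the 6 suprabasal keratins of the oral list all had a lower fitted level in H3K36M, with a median log2FC of −0.82, and 2 were lower at the threshold, Krt76 (log2FC −1.93, adjusted p = 2.22e-07) and Krt36 (−1.65, adjusted p = 1.61e-05) in the authors' deposited table. The summed level of 7 basal keratinocyte markers was 129647 in control and 102076 in H3K36M. The 1 call among them was Krt14, the gene whose promoter drives the Cre, at 69205 and 37784 (log2FC −0.87, adjusted p = 0.0292), and the other 6 summed to 60442 and 64292 in the authors' deposited table. Neuron and nerve markers, which mark cells known to express clustered protocadherins, had 0 calls among 10 and 11 tested genes (0 with an unadjusted p below 0.05, DESeq2 by the authors). Their summed levels went from 663 to 547 and from 2511 to 2176 normalised counts, with Mbp, Pmp22 and Tubb3 as the leading genes. Of the tested ones, 5 of 10 neuron and 5 of 11 nerve markers had a higher fitted level in H3K36M. The neurofilament gene Nefm had a mean of 0.393 normalised counts, with Nefl still lower. Fibroblast markers went from 15518 to 13974 and endothelial ones from 1405 to 1281, with 0 calls in each list by the authors' DESeq2, also at an unadjusted p below 0.05. A higher fitted level in H3K36M was found for 4 of 9 fibroblast and 3 of 8 endothelial markers. Dcn made up most of the fibroblast sum (11827 in control and 10282 in H3K36M). Skeletal muscle markers summed to 82199 in control and 22980 in H3K36M, with 0 of 11 past the threshold and 1 of 11 higher in fitted level. Smooth muscle and pericyte markers went from 3642 to 2156, with 0 calls and 1 of 6 higher in fitted level. Taste receptor cell markers went from 1083 to 1383, with 0 calls and 5 of 6 higher in fitted level. Most of the taste sum was Itpr3 (895 and 1116), and Gnat3 had a lower fitted level in H3K36M (3.39 and 1.14). Of the taste markers only Pou2f3 had an unadjusted p below 0.05 (0.00901, DESeq2 by the authors). Melanocyte markers went from 95.8 to 50.9. Of 5 tested, 2 had a higher fitted level and 1 was lower at the threshold, Dct (16.2 and 4.65, log2FC −1.80, adjusted p = 0.00168 by the authors' DESeq2). Simple and ductal epithelial markers summed to 818 and 2463, with 6 of 7 higher at the threshold. Of 8 immune markers 2 were higher at the threshold, the neutrophil and keratinocyte alarmins S100a8 (54.8 and 792) and S100a9 (53.9 and 911), and the other 6 summed to 1155 and 1134 normalised counts in the authors' deposited table. The part of these differences in the protocadherin levels was not tested.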

How the data were processed

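Poly(A) RNA from 7 control and 6 H3K36M samples was sequenced as single-end directional libraries, per the labels' protocols. Per the submitters' processing notes STAR, DESeq2 and GRCm38 (mm10) were used, with no versions. The sources used here do not name the read counter or the annotation. The authors deposited 1 table of statistics. Its mean and group levels are normalised counts, a signal scale, per the file headers. Its log2 fold changes and their SEs, the Wald statistic (a score), and the raw and adjusted p-values are also as deposited. Of 24972 genes, 17449 had an adjusted p. The mean was the average of the group levels weighted by 7 and 6 samples, within 1e-06 in each gene with reads.

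Since the table has group values alone, no count model was run, and a call is an adjusted p of the authors below 0.05, its direction that of their fold change. Intervals (95%, from the SE), counts, medians and implied CVs were computed with Python 3.11.15, pandas 2.3.3 and scipy 1.17.1, and the adjustment and the CV formula were tested on simulated data. Positions came from RefSeq on GRCm38.p6 (all 58 symbols matched) and transcript lengths from GENCODE M21 (56 symbols; Pcdha10 and Pcdha11, whose names differ there, were left out of values per kilobase). Mean depth was 15769800 normalised counts per library, and relative depths, taken from the values of 1 read in genes read in 1 library, ran from 0.645 to 1.77. They are uncertain, since few-read genes that are no whole multiple of such a value mostly missed the sum of a pair of them as well. Every member could be named. Of each related list, the genes past the threshold or else the 2 with the highest mean were named, together with Ctcf, Rad21, Smc3, Smchd1, Setdb1, Dnmt3a and Dnmt3b. Members and lists were chosen with earlier results of these data known. Alternatives were other thresholds, filters, reference distributions and centring.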

Additional observations from a re-analysis of the deposited data

How the results depend on the processing

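No setting tried gave a call at an adjusted p below 0.05 in any protocadherin array. At a threshold of 0.1 there was 1 call, Pcdhb7 (log2 fold change 1.59, adjusted p = 0.0672), which makes the count 1 higher over all members and 1 in the beta array. Over the settings its adjusted p ran from 0.0625 (adjusted over genes with a mean of at least 10) to 0.307 (t distribution with 11 degrees of freedom), with 0.076 without a filter on low means. The t distribution left 174 of the 599 calls over all genes. After centring on the median fold change of all tested genes (0.07), Pcdha9 changed sign to −0.0225, and the other 47 tested members kept theirs. The median of the alpha array depended most on its members. At a mean of at least 10 only Pcdhac2 was left, at −2.31, against 1.53 over the tested genes, and the summed levels gave −0.56. The beta median was 0.66 as deposited and lowest, at 0.54, as the log2 ratio of summed levels. The gamma median was 0.67 as deposited and 0.50 at a mean of at least 10. As the log2 ratio of summed levels the gamma value was 0.75, or 0.50 without Pcdhgc3. The uncertainty of these medians was not estimated. The gamma sum without Pcdhgc3 was added after the data were seen. Leaving out single samples could not be run, as the table holds no values of single samples. No paired analysis was possible because the replicate numbers only name samples and no values of single samples were at hand. Low counts limit the alpha genes most, 7 of 8 of which had a mean below 5. Whether depth, low expression or the assignment of reads gave these low means was not tested.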
